A study of Mus musculus with 22 samples.

Results

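A set of 90 accessible regions of the mouse genome gained signal when spermatogonia acquired the receptor KIT and kept at least the fraction 0.5 of that signal in later germ cells. They were chosen from 96049 ATAC-seq peaks, of which 93867 lay on chromosomes 1 to 19. Counts were scaled to the library's total in peaks (CPM). A region was kept when its mean was at least 10 CPM in 3 control KIT-positive libraries, at least 3 times the mean of 5 control KIT-negative libraries, and when its mean in 5 later germ cell libraries was at least the fraction 0.5 of the KIT-positive mean. The first 2 conditions were met by 1407 peaks, and 1317 of these were lower later and failed the third. ATAC-seq marks open chromatin by the insertion of adapters with the transposase Tn5.

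The study deleted TERT, which is the reverse transcriptase of telomerase, and compared chromatin in spermatogonia. All mice were C57BL/6 of 8 to 12 weeks. Spermatogonia were taken on day 7 after tamoxifen and sorted into MCAM-high:KIT-, MCAM-Med:KIT- and MCAM-Med:KIT+ cells, which form a series from undifferentiated to differentiating. TERT-deleted mice gave 3 MCAM-high, 3 MCAM-medium and 3 KIT-positive libraries, and TERT-heterozygous controls gave 3, 2 and 3. The genotype entry reads TertCreER/+:Rosalsl-Tdtomato/+ for deleted and control mice alike, so the deletion rests on the sample titles. By the allele names, Cre recombinase is expressed from the Tert locus and switched on by tamoxifen, and a tdTomato reporter marks the cells in both groups. The 5 later libraries came from TertTdtomato/+ mice and are titled as spermatocytes or round spermatids. For 4 of these 5 the title and the library name disagree on the cell type, and they were kept as 1 group. All 5 library names share Het1 and differ by a letter and a cell number, so they may be portions from 1 animal, which the labels do not settle, and their SD may then hold no spread between animals. The labels do not tie replicates to different animals, so the spread behind each p-value may be technical.

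Spermatogonial stem cells and their early progeny lack KIT. KIT, the receptor of stem cell factor, appears as the cells commit to differentiation under retinoic acid, divide several more times and then enter meiosis. Spermatocytes recombine their chromosomes, and round spermatids begin to build the sperm head and tail. An ATAC-seq signal shows that a region is accessible and does not by itself report transcription.

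Of the 90 regions, 11 overlapped the promoter window of a RefSeq gene, which runs from 250 bases before to 50 bases after the annotated start. Such a window overlapped 14.1% of all peaks on chromosomes 1 to 19 and 2.35% of the 1317 regions lower later. The windows of 4 genes are printed below from RefSeq GRCm38.p6, 5′ to 3′ on the strand of the gene, as examples among the windows whose regions rose again in deleted cells: H4c1 has the highest signal of the set, and the others cover starts of protein-coding genes with high signal later or more signal later than in KIT-positive cells. The H4c1 window is chr13:23761200-23761499 on the minus strand, Ptar1 is chr19:23687150-23687449 on the plus strand, Onecut1 is chr9:74861671-74861970 on the plus strand and Nutm2 is chr13:50467057-50467356 on the plus strand. Capitals mark letters of 9 motifs searched on both strands: CAGTTG (MYB), CCAAT (NF-Y), NRF1 (GCGC, any base, TGCGC), TGACGTCA (CRE), GTTGCCA (RFX half-site), TTTCCCGC and TTTGGCGC (E2F), CACGTG (E-box) and GGGCGG (GC box).
H4c1: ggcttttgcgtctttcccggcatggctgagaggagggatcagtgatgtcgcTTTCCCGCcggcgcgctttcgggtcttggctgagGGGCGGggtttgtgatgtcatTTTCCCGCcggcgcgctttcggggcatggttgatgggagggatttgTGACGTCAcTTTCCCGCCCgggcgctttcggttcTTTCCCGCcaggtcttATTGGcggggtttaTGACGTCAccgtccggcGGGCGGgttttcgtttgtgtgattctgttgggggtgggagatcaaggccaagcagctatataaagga
Ptar1: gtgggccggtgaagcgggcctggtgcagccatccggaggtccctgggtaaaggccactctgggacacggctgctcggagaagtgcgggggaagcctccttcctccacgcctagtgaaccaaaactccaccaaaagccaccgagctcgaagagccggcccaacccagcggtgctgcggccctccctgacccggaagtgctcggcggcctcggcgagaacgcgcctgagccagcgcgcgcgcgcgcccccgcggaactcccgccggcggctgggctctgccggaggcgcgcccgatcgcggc
Onecut1: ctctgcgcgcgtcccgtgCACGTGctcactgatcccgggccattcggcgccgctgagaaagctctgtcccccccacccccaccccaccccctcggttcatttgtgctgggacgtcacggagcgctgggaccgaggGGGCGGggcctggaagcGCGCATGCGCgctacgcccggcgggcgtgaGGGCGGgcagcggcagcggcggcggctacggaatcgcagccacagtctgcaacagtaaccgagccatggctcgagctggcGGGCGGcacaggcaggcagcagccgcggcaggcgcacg
Nutm2: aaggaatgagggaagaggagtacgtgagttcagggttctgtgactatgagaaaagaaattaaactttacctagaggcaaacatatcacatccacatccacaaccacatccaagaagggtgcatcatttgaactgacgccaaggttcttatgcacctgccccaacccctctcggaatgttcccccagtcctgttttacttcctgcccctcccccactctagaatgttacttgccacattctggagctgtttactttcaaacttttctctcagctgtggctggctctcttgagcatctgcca
The H4c1 window held TTTCCCGC at 4 positions and TGACGTCA at 2, besides 3 GC boxes, 1 of which overlaps a TTTCCCGC, and 1 CCAAT. TTTCCCGC occurred in 1.06% of 31396 RefSeq promoter windows on chromosomes 1 to 19 other than 18, and TGACGTCA in 1.83%. Onecut1 held 1 NRF1 motif, 1 CACGTG and 3 GC boxes. The shares of all windows with these motifs were 4.68%, 7.14% and 36.0%. Ptar1 and Nutm2 held none of the 9 motifs. Over the 12 windows that the 11 regions overlapped, TTTCCCGC was present in 2, NRF1 in 2, CCAAT in 4, CAGTTG in 1, GGGCGG in 7, and GTTGCCA and TTTGGCGC in 0. Among the 12, 2 windows of the gene 4933431G14Rik overlap each other, and both held CCAAT. The share of G and C was 42.0 to 82.3% in the 12 windows, against a median of 53.0% over all windows. CCAAT occurred in 37.3%, CAGTTG in 13.4%, GTTGCCA in 4.41% and TTTGGCGC in 0.513% of all windows. These matches are letters in a window and were not tested as binding sites.

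Library totals in peaks ranged from 922085 to 3358377 counts, so that 3 counts, the limit that a count of 0 allows, equal 0.893 to 3.25 CPM. Even numbers made up 48.8 to 73.9% of the nonzero counts of a library. An even share well above 50% would arise if each fragment added a count at either end, which the sources used here do not state. Counts would then not be independent, and the limits and counting intervals given here, which cover counting error only, would be too narrow. Sums over gene-end peaks of marker lists gave a check of the labels. The 14 differentiating genes with such a peak, Kit and Stra8 among them, summed to 599 to 657 CPM in deleted KIT-positive libraries and 410 to 510 CPM in deleted KIT-negative ones. The undifferentiated list did not separate the sorts, with 489 to 639 CPM in deleted KIT-positive cells and 537 to 615 CPM in deleted KIT-negative cells, and summed to 274 to 329 CPM in later germ cells. The spermiogenesis list summed to 1159 to 1259 CPM in later germ cells and 483 to 660 CPM in the spermatogonia. Sertoli markers summed to 148 to 213 CPM in deleted KIT-positive cells and 190 to 253 CPM in deleted KIT-negative cells, and Leydig markers to 30.3 to 54.9 CPM in deleted KIT-positive cells and 49.5 to 69.6 CPM in deleted KIT-negative cells. Immune markers summed to 41.0 to 45.9 CPM in deleted KIT-positive cells and 52.4 to 68.7 CPM in deleted KIT-negative cells, and peritubular and endothelial markers to 84.8 to 102 CPM in deleted KIT-positive cells and 103 to 149 CPM in deleted KIT-negative cells. The ranges of the immune and peritubular lists did not overlap, with the lower one in KIT-positive cells, and those of the other 2 somatic lists overlapped. These sums are scaled to library totals only. The TMM factors of the tests below were 0.899 to 0.934 in deleted KIT-positive and 1.02 to 1.08 in deleted KIT-negative libraries. That scaling would raise KIT-positive sums relative to KIT-negative ones and close the peritubular gap of 102 against 103 CPM. No sum was rescaled, and the part of these cells in the results below was not tested.

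In the libraries that chose them, the regions went through 3 levels. Their median was 3.02 CPM in control KIT-negative cells, 12.7 CPM in control KIT-positive cells and 11.7 CPM in later germ cells. The control KIT-positive mean ranged from 10.2 to 148 CPM, with 18 regions at 20 CPM or more and 50 below 13 CPM. The ratio of KIT-positive to KIT-negative cells had a median of 4.06 over 89 regions. The ratio of later germ cells to KIT-positive cells had a median of 0.777 and ran from 0.512 to 3.98, with 28 regions at least as high later and 62 lower. These values describe the choice and carry no test.

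Regions on either side of a threshold had close values. By level, the regions in Pde4dip at 10.2 CPM and near Cfap20 at 10.2 CPM were just inside, and those at Atp2b1 with 9.99 CPM and in Dyrk3 with 9.95 CPM just outside. By gain, Tincr at 3.0 and Tubgcp2 at 3.01 times the KIT-negative mean were inside, and Hid1 at 2.98 times was outside. By the share kept later, 4933411E08Rik at 0.512 and Tincr at 0.517 were inside, whereas the peak at Cdc6 (27.8 CPM later against 55.5 CPM in KIT-positive cells, just under 0.5) and Lrrfip1 at 0.495 were outside.

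The choice also leaned on single libraries. Without control KIT-positive replicate 2, the shallowest library with 922085 counts, the rule kept 77 regions, of which 54 were among the 90. Without replicate 1 it kept 120 (58 of the 90), and without replicate 3 it kept 146 (70 of the 90). Replicate 2 was the highest of the 3 at 41 regions, and at 11 regions it alone reached 10 CPM.

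The 9 deleted libraries took no part in the choice and were used to ask whether the gain with KIT recurred. With edgeR's quasi-likelihood test, 59 of the 90 regions were higher in deleted KIT-positive cells than in the mean of both deleted KIT-negative populations at an adjusted p under 0.05, and 0 were lower. Among all 91132 peaks tested, 7.87% were called higher and 3.1% lower. In sorted bulk libraries, a region open in more cells and a region more open per cell cannot be told apart. The median log2 fold change was 1.65 over the 90 regions and -0.08 over all peaks, and 85 of the 90 were above 0. The 31 regions that missed the threshold comprised 26 above 0 and 5 below. In 43 regions every deleted KIT-positive library exceeded every deleted KIT-negative library, which held for 5.44% of all peaks. All 90 regions passed the filter of 10 counts summed over the 9 libraries, which does not look at groups.

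Summed over the 90 regions, the signal was 1449 ± 79.7 CPM in deleted KIT-positive cells, against 565 ± 35.7 CPM in deleted MCAM-high and 620 ± 55.2 CPM in deleted MCAM-medium cells (SD, n = 3 each). The groups did not overlap. Controls had 399 ± 34.0 CPM in MCAM-high (n = 3), 399 ± 1.49 CPM in MCAM-medium (n = 2) and 1632 ± 148 CPM in KIT-positive cells (n = 3), and later germ cells had 1551 ± 64.5 CPM (n = 5). The 5 later libraries lay between 1480 and 1632 CPM, whichever cell type their titles or names give. The 1317 regions lower later had 3759 ± 415 CPM in later germ cells, against 24488 ± 2410 CPM in control KIT-positive cells. Control and later values chose both sets of regions, so their sums are shaped by the choice and carry no test.

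**Figure D1:**
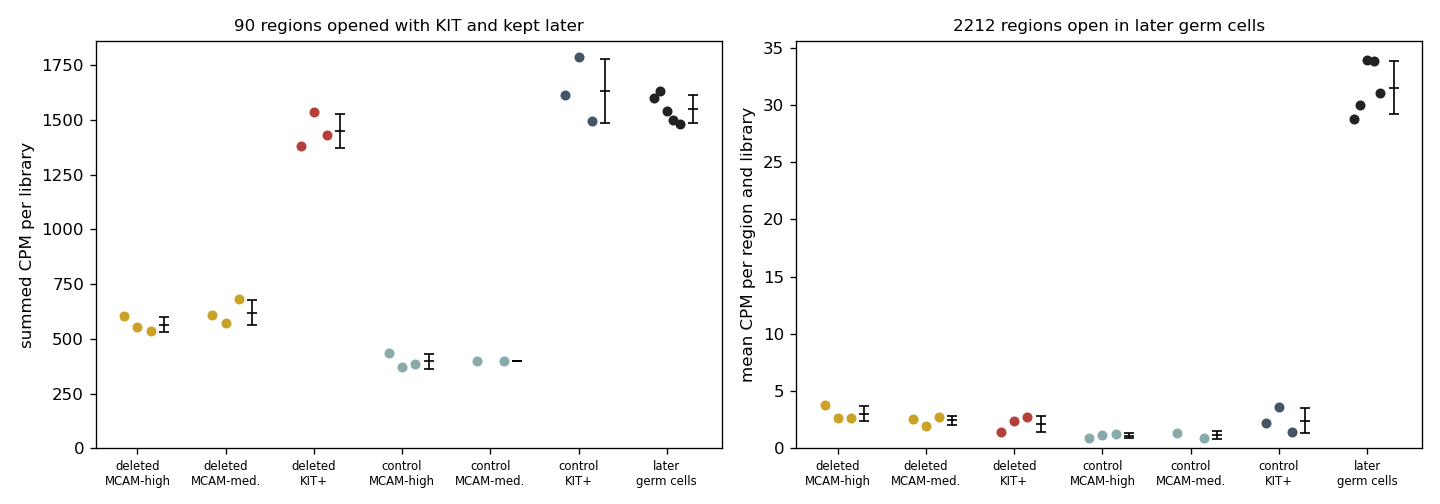
The left panel gives summed CPM of the 90 regions per library. The right panel gives mean CPM of 2212 regions with at least 20 CPM in later germ cells and at least 10 times the control KIT-negative mean. That choice sets the gap between later and control KIT-negative cells. Points are libraries by group and bars are mean ± SD. In the left panel the deleted KIT-positive libraries (1449 CPM on average) lie far above the deleted KIT-negative ones (565 and 620 CPM); in the right panel later germ cells average 31.5 CPM and no spermatogonial group exceeds 3.05 CPM.

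The gain in deleted cells was smaller at these regions than at those lower later, by description. The control step that chose them was smaller too. Medians in control KIT-negative and KIT-positive cells were 3.02 and 12.7 CPM at the 90, against 2.67 and 15.2 CPM at the 1317. Of the 1317, 1119 (85.0%) were called higher and their median log2 fold change was 2.28. Within the 90, 43 of the 62 regions below the KIT-positive level later were called, with a median of 1.73. Of the 28 regions at least as high later, 16 were called, with a median of 1.25. Of the 6 regions with at least 2 times the KIT-positive level later, 1 was called and the median was 0.12. The difference between these subsets was not tested.

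**Figure D2:**
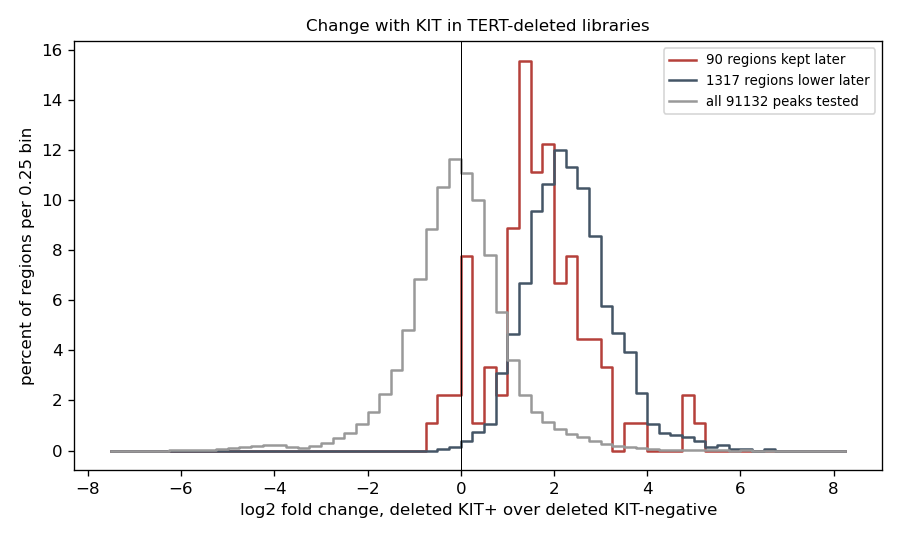
Log2 fold change of deleted KIT-positive over deleted KIT-negative cells (x axis) and percent of regions per bin of 0.25 (y axis) for the 90 regions kept later, the 1317 lower later and all 91132 peaks tested. The medians are 1.65, 2.28 and -0.08.

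Against each KIT-negative population singly, edgeR's quasi-likelihood test called 50 regions higher than MCAM-high (7.14% of all peaks higher, 3.17% lower) and 36 higher than MCAM-medium (4.07% of all peaks higher, 1.93% lower). In either comparison 0 of the 90 were lower. The medians were 1.78 and 1.41 on the log2 scale, and 30 regions were called against both. Without deleted MCAM-medium replicate 1, the count against MCAM-medium was 23. Between deleted MCAM-medium and deleted MCAM-high cells, edgeR called 0 of the 90, with 13 at an unadjusted p under 0.05, and DESeq2 also called 0 (15 had no adjusted p). Of all peaks, edgeR called 0.638% higher and 0.0538% lower in MCAM-medium cells, 581 and 49 peaks. These fell to 218 higher without deleted MCAM-medium replicate 2 and to 8 lower without deleted MCAM-high replicate 2. The median log2 fold change of the 90 was 0.20.

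The regions that rose included a pair at histone genes. The region at H4c1 and H3c1, which encode the core histones H4 and H3, spans chr13:23760905-23762643 and covers the H4c1 promoter window printed above. It had 105, 186 and 171 CPM in deleted KIT-positive cells, against 38.4, 48.4 and 62.0 CPM as the lowest, median and highest of the 6 deleted KIT-negative libraries. The groups did not overlap, and the log2 fold change was 1.84 ± 0.17 (SE, edgeR adjusted p = 1.01e-22). In controls it had 38.0, 37.7, 65.1, 56.7 and 47.7 CPM in KIT-negative cells and 145, 172 and 126 CPM in KIT-positive cells, and later germ cells had 92.6, 110, 92.8, 110 and 89.4 CPM. It was the highest of the 90 regions in KIT-positive and in later cells. Histone genes occur in near-identical copies, and how reads shared between copies were counted is not given in the sources used here.

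The region at H1f10, chr6:87980149-87980885, behaved in the same direction and was higher still later. H1f10 encodes a linker histone of the H1 family. The deleted KIT-positive libraries had 34.6, 34.4 and 24.8 CPM, against a lowest, median and highest of 4.43, 8.39 and 13.6 CPM in deleted KIT-negative cells, with no overlap. The log2 fold change was 2.15 ± 0.33 (SE, edgeR adjusted p = 9.48e-09). Control KIT-negative cells had 6.40, 5.39, 12.0, 16.7 and 3.10 CPM, control KIT-positive cells 41.8, 36.9 and 28.4 CPM, and later germ cells 50.6, 64.7, 43.3, 50.1 and 61.1 CPM.

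At Ptar1, Onecut1 and Nutm2, regions that covered the gene's start rose too. Ptar1 encodes a protein with prenyltransferase alpha subunit repeats. Its region at chr19:23687057-23688360 had 48.5, 52.7 and 36.4 CPM in deleted KIT-positive cells, against 13.6, 17.6 and 20.7 CPM as the lowest, median and highest in deleted KIT-negative cells. The log2 fold change was 1.59 ± 0.25 (SE, edgeR adjusted p = 5.73e-08), and the groups did not overlap. Control KIT-negative cells had 22.6, 6.28, 8.00, 13 and 18.6 CPM, control KIT-positive cells 47.0, 39.0 and 42.6 CPM and later germ cells 42.0, 45.8, 44.0, 29.6 and 29.8 CPM. Onecut1, a homeobox transcription factor gene, and Nutm2 were picked for description after their values were seen, because their promoter windows lie under a region. Onecut1 (chr9:74861452-74861982) had 23.4, 13.9 and 20.4 CPM in deleted KIT-positive cells, against 3.41, 5.85 and 7.39 CPM as lowest, median and highest in deleted KIT-negative cells. Its log2 fold change was 1.99 ± 0.42 (SE, edgeR adjusted p = 6.79e-05), and its later germ cell values were 20.9 to 30.9 CPM. A further region lay 13838 bp away at chr9:74847088-74847614, the nearest neighbours of the whole set, and it missed the threshold, with a log2 fold change of 0.11 (edgeR adjusted p = 0.953). Nutm2 (chr13:50467098-50467786) had 19, 9.98 and 10.2 CPM in deleted KIT-positive cells, against 1.29, 2.98 and 4.43 CPM in the same summary of deleted KIT-negative cells. Its log2 fold change was 2.31 ± 0.53 (SE, edgeR adjusted p = 0.000365).

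The largest gains in deleted cells were in regions close to 0 in deleted KIT-negative cells. The region in Lrch3, a gene for a leucine-rich repeat protein, lies at chr16:32925600-32925936. It had 13, 15.5 and 14.6 CPM in deleted KIT-positive cells, whereas 4 of the 6 deleted KIT-negative libraries were at 0 and the highest had 1.64 CPM. That is 63 counts against 3 counts, a ratio of 38.1 after scaling to the totals, with a 95% exact counting interval of 12.5 to 190 and an edgeR adjusted p of 1.23e-10. The 5 control KIT-negative libraries had 0, 2.69, 5.14, 0.464 and 0 CPM and control KIT-positive cells 13.4, 2.17 and 18.3 CPM, so the control groups overlapped, and later germ cells had 5.73 to 12.6 CPM. Oga encodes the enzyme that removes O-GlcNAc from proteins. Its region at chr19:45778219-45778472 had 14.7, 16.1 and 8.74 CPM in deleted KIT-positive cells, against 0, 0.369 and 1.36 CPM as the lowest, median and highest in deleted KIT-negative cells. The counts were 58 against 4, a ratio of 26.3 (95% exact counting interval 9.75 to 99.9; edgeR adjusted p = 3.10e-09). Control KIT-negative cells had 0.929 CPM in 1 library and 0 in the other 4, control KIT-positive cells had 11.9, 19.5 and 9.64 CPM, and later germ cells had 7.74, 13.7, 20.9, 10.9 and 6.68 CPM.

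Nsd3, which encodes a histone H3 lysine 36 methyltransferase, held the only region of the 90 with 0 counts in all 5 control KIT-negative libraries. At chr8:25693852-25694165 the deleted KIT-positive libraries had 5.19, 14.4 and 10.9 CPM, against 0 in 4 of 6 deleted KIT-negative libraries and 1.29 and 3.27 CPM in the others. The counts were 47 against 6, a ratio of 14.2 (95% exact counting interval 6.07 to 40.7; edgeR adjusted p = 4.88e-07). Control KIT-positive cells had 8.20, 9.76 and 13.2 CPM, and later germ cells had 5.66, 9.74, 4.88, 7.24 and 7.71 CPM.

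Other large gains among regions named for a protein-coding gene lay at or in Rbm22, Ikzf4, Cnot8, Pde8b and Lss. They were picked by fold change alone and were not tested as a theme. Regions between genes also had large gains, such as 3.09 ± 0.53 (log2, SE) at chr6:37742113-37742679 and 3.01 ± 0.49 at chr9:118387475-118387969. The region at an annotated end of Rbm22, a splicing factor gene, had 13.8 to 22.7 CPM in deleted KIT-positive cells, against 0 to 4.43 CPM in deleted KIT-negative cells. In edgeR's quasi-likelihood test it was higher by 3.73 ± 0.55 (log2, adjusted p = 1.79e-09). Ikzf4, a zinc finger transcription factor of the Ikaros family, rose by 3.07 ± 0.49, and Cnot8, a subunit of the CCR4-NOT deadenylase, by 2.90 ± 0.43 on the log2 scale (edgeR adjusted p = 5.87e-08 and 3.63e-09). The region in Pde8b, a cyclic AMP phosphodiesterase gene, rose as well (edgeR adjusted p = 0.000757). It had 4.33 to 8.87 CPM in deleted KIT-positive cells, 0 in all 3 deleted MCAM-high libraries and 1.48 to 3.86 CPM in deleted MCAM-medium cells, and was not called against MCAM-medium alone (edgeR adjusted p = 0.316). The counts were 30 against 10, a ratio of 5.45 (95% exact counting interval 2.59 to 12.5), and the fitted log2 value of 3.98 that ranked it rests partly on a fold over 0 counts. Lss encodes lanosterol synthase of the cholesterol pathway, and its region rose by 2.88 ± 0.73 (edgeR adjusted p = 0.00182). Without deleted KIT-positive replicate 2 the Lss value was 2.40 with an adjusted p of 0.142.

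Among the named regions with high signal in KIT-positive or later cells, 4 more rose in deleted cells. They lie at Tubgcp2 and Zfp511 (a gamma-tubulin complex gene and a zinc finger gene), at Foxh1 and Ppp1r16a (a forkhead factor of nodal signalling and a phosphatase subunit), in St3gal5, the gene of GM3 ganglioside synthase, and at Zfp957, a zinc finger gene. Their log2 fold changes were 1.25 ± 0.21, 1.15 ± 0.24, 1.78 ± 0.29 and 1.73 ± 0.28 (SE, edgeR adjusted p = 3.07e-07, 7.93e-05, 9.17e-08 and 4.34e-08). At the Foxh1 region the deleted KIT-positive libraries had 63.2, 42.2 and 32 CPM, against 18 to 37.6 CPM in deleted KIT-negative cells, so these groups overlapped, and control KIT-positive cells had 33.6, 29.3 and 75.1 CPM. Later germ cells averaged 47.4 CPM at the Tubgcp2 region, 51.7 CPM at Foxh1, 18.5 CPM in St3gal5 and 26.8 CPM at Zfp957. Ptk2, the focal adhesion kinase gene, had a log2 fold change of 0.77 ± 0.29 and Exoc6, an exocyst subunit gene, 0.78 ± 0.31, and neither passed (edgeR adjusted p = 0.0658 and 0.0861). Ptk2 had 29.4, 18.9 and 34.2 CPM in deleted KIT-positive cells, against 11.2 to 31.9 CPM in deleted KIT-negative cells, so its groups overlapped.

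**Figure D3:**
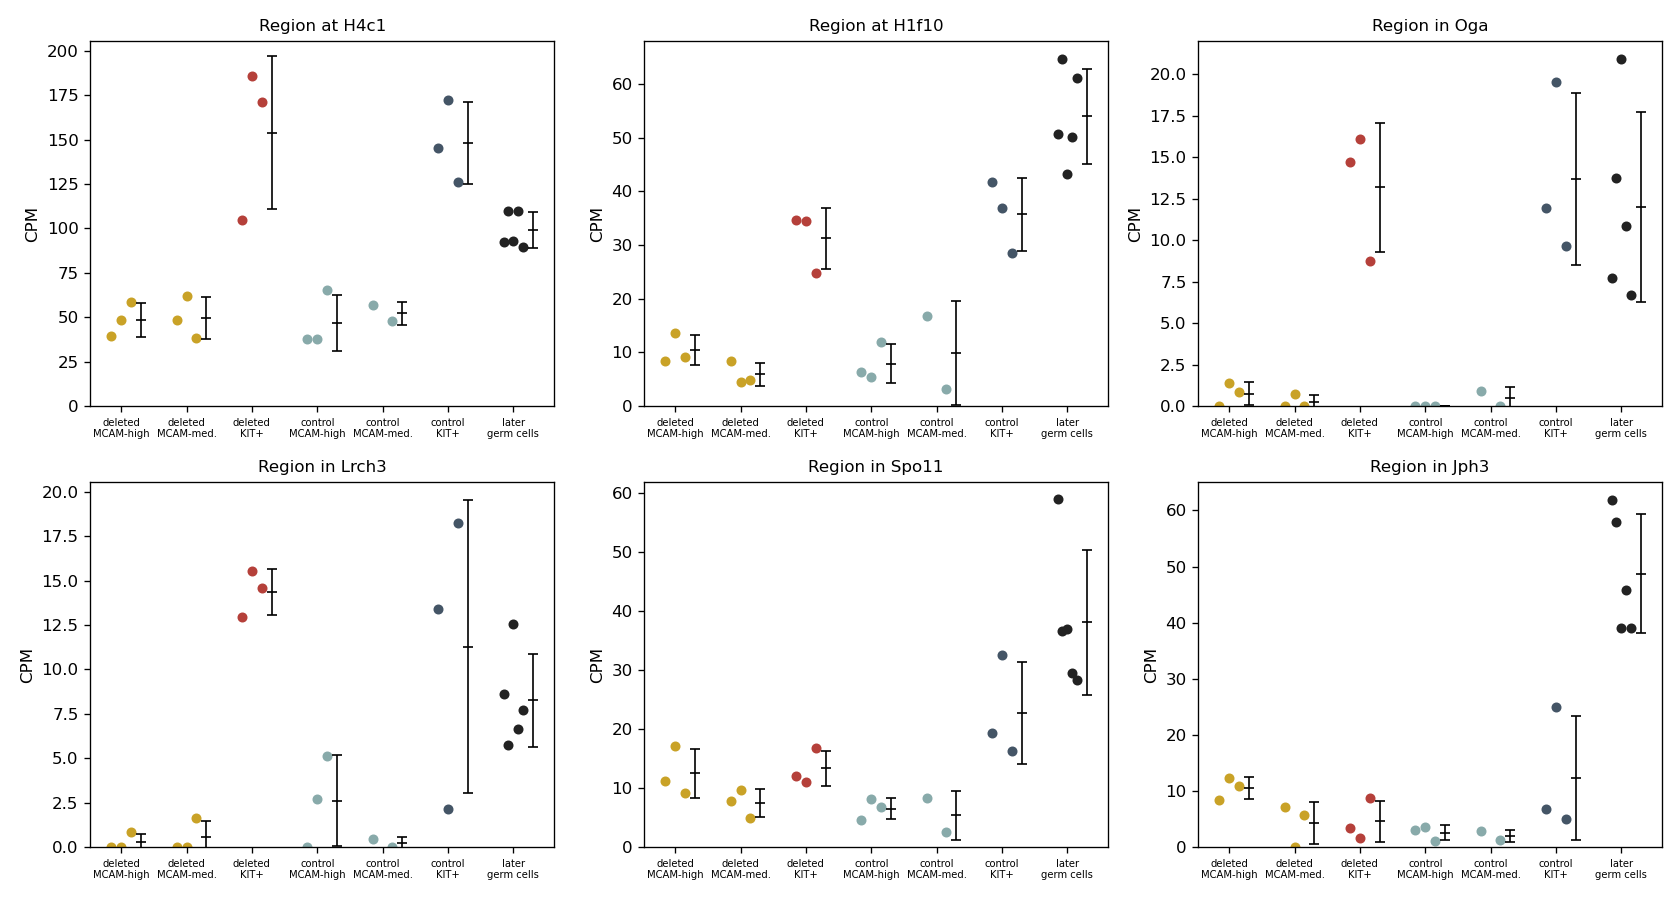
CPM per library at 6 regions; points are libraries and bars are mean ± SD of the group. H4c1, H1f10, Oga and Lrch3 show deleted KIT-positive libraries above all deleted KIT-negative ones; at Spo11 and Jph3 these groups overlap, and at Jph3 the control KIT-positive mean rests on 1 library at 24.9 CPM.

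Of the 6 regions with the highest signal later relative to KIT-positive cells, 5 missed the threshold in deleted cells. Jph3 encodes a junctophilin, and its region (chr8:121770597-121771815) had the largest ratio, 3.98. It had 3.46, 1.66 and 8.74 CPM in deleted KIT-positive cells, against 0, 7.74 and 12.3 CPM as lowest, median and highest in deleted KIT-negative cells, a log2 fold change of -0.39 ± 0.57 (edgeR adjusted p = 0.791). Control KIT-negative cells had 3.01, 3.59, 1.14, 2.79 and 1.24 CPM, control KIT-positive cells 6.71, 24.9 and 5.07 CPM and later germ cells 61.9, 57.9, 39.1, 45.8 and 39.1 CPM. The control KIT-positive mean thus came mostly from replicate 2. Cyb5rl, a cytochrome b5 reductase-like gene, had the same shape, with 4.47, 27.1 and 2.03 CPM in control KIT-positive cells and 35.6 to 53.7 CPM in later germ cells. Its deleted KIT-positive libraries had 3.46, 7.21 and 5.10 CPM, against 0 to 12.1 CPM in deleted KIT-negative cells (log2 fold change 0.18 ± 0.56, and -0.0097 without TMM scaling, edgeR adjusted p = 0.912). Slc12a8, a solute carrier gene, had 21.8 to 44.7 CPM in later germ cells and a log2 fold change of -0.31 ± 0.53 in deleted cells (edgeR adjusted p = 0.825).

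Replicate 2 of the control KIT-positive cells also had the highest signal of the 3 at sites open in later germ cells. Over 2212 regions with at least 20 CPM in later germ cells and 10 times the control KIT-negative mean, it had a mean of 3.62 CPM, against 2.24 and 1.43 CPM in replicates 1 and 3. Deleted libraries had 1.40 to 2.75 CPM in KIT-positive and 1.97 to 3.81 CPM in KIT-negative cells, and control KIT-negative libraries 0.871 to 1.38 CPM. The choice of these regions holds the control KIT-negative values down. When replicate 2 was left out, 4 of the 6 regions with at least 2 times the KIT-positive level later no longer met the rule. Of the 54 regions that still met it, 41 were called higher in deleted cells. Of the 36 that did not, 18 were called. Without replicate 1, 40 of the 58 that still met it and 19 of the 32 that did not were called. Without replicate 3, these were 46 of 70 and 13 of 20. The part that the signal of replicate 2 at sites open later plays in the results was not tested.

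The exception among those 6 was Trp53bp1, the gene of a DNA double-strand break repair factor. Its region (chr2:121211739-121212276) had 10.4, 19.4 and 10.2 CPM in deleted KIT-positive cells, against 0.644, 2.14 and 5.73 CPM as lowest, median and highest in deleted KIT-negative cells. The groups did not overlap, and the log2 fold change was 2.53 ± 0.53 (SE, edgeR adjusted p = 6.02e-05). Control KIT-negative cells had 1.5, 1.35, 1.71, 2.32 and 2.48 CPM, control KIT-positive cells 12.7, 13 and 13.2 CPM, and later germ cells 24.7, 25.8, 25.8, 38.0 and 35.5 CPM. The values of control KIT-negative, control KIT-positive and later cells did not overlap. The rule chose the region on these values, so their separation is shaped by the choice and carries no test. Across the whole set, 84 regions had every control KIT-positive library above every control KIT-negative library. Trp53bp1 was singled out after its values were seen.

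**Figure D4:**
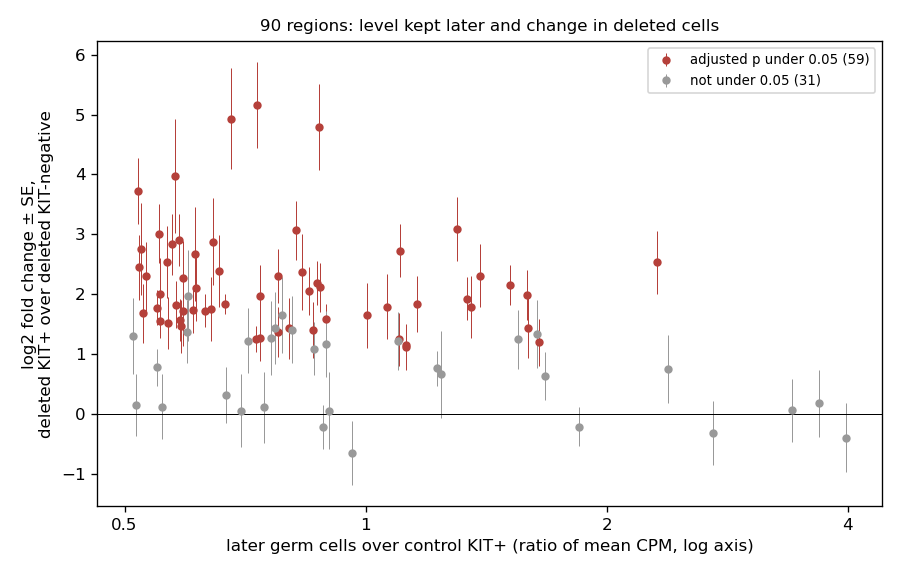
Each point is 1 of the 90 regions. The x axis (log) is the ratio of mean CPM in later germ cells to control KIT-positive cells, and the y axis is the log2 fold change ± SE in deleted cells. Of the 6 regions at a ratio of 2 or more, 1 passed the threshold; in all, 59 passed.

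Spo11, which makes the DNA breaks that start meiotic recombination, was the only gene of the pathway lists with a region among the 90. The region lies at chr2:172979676-172980362 inside the gene and within 1 kb of an end of the lncRNA gene Gm52538. It had 12.1, 11.1 and 16.7 CPM in deleted KIT-positive cells, against 4.91, 9.38 and 17 CPM as lowest, median and highest in deleted KIT-negative cells. These groups overlapped, and the log2 fold change was 0.63 ± 0.40 (SE, edgeR adjusted p = 0.382). Control KIT-negative cells had 4.51, 8.08, 6.85, 8.36 and 2.48 CPM, control KIT-positive cells 19.4, 32.5 and 16.2 CPM, and later germ cells 59, 36.7, 37.0, 29.6 and 28.3 CPM. The gene-end peak of Spo11 with the highest mean count had a mean of 2.77 CPM in later germ cells, against 20.4 CPM in control KIT-positive cells.

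The regions at Chd3 and Atxn7l3 did not pass the test in deleted cells. Chd3 encodes a helicase of the NuRD complex, and its region had 3.46, 3.33 and 5.82 CPM in deleted KIT-positive cells, against 1.67 to 7.47 CPM in deleted KIT-negative cells (log2 fold change 0.06 ± 0.65, and -0.13 without TMM scaling, edgeR adjusted p = 0.979). The control KIT-positive libraries at Chd3 had 17.9, 8.68 and 6.09 CPM, with replicate 1 the highest. Atxn7l3 encodes a subunit of the SAGA deubiquitinase module. Its region had 6.92, 13.3 and 14.6 CPM in deleted KIT-positive cells, against 5.00 to 21.5 CPM in deleted KIT-negative cells (log2 fold change -0.22 ± 0.37, edgeR adjusted p = 0.818). Its control KIT-positive libraries were uneven, at 24.6, 47.7 and 14.7 CPM, with replicate 2 again the highest.

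Set beside the controls, deleted cells had a narrower step. The deleted KIT-positive mean was below the control KIT-positive mean at 64 of the 90 regions, and the deleted KIT-negative mean was above the control KIT-negative mean at 81. The rule chose regions for high control KIT-positive and low control KIT-negative values, so these differences are shaped by the choice and were given no test.

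By position, 26 regions (28.9%) lay within 1 kb of an annotated end of a RefSeq protein-coding or lncRNA gene, 39 (43.3%) in a gene body and 25 (27.8%) between genes. All peaks on chromosomes 1 to 19 divided as 24.5, 36.7 and 38.8%, and the 1317 regions lower later as 11.3, 56.6 and 32.1%. The gain in deleted cells was called in 17 of 26 regions at gene ends, 25 of 39 in gene bodies and 17 of 25 between genes. Over all peaks tested, the shares called higher were 14.4% at gene ends, 7.43% in gene bodies and 3.93% between genes. Against MCAM-medium alone the counts were 14 of 26, 13 of 39 and 9 of 25, with 8.64, 3.37 and 1.69% over all peaks of the same classes. The median width was 529.5 bp for the 90 regions, 423 bp for the 1317 and 416 bp for all peaks. Chromosome 19 held 11 regions (12.2% of the set) and 2.71% of all peaks. None of the protein-coding genes that name 59 of the regions, 1 per region, named 2. Other genes were not checked.

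Since Spo11 alone of the listed genes had a region in the set, the genes' own gene-end peaks were counted in the same contrast of deleted KIT-positive against deleted KIT-negative cells. The replication and cell cycle list had 23 of 26 tested peaks higher and 1 lower, Ccnd3 (edgeR's quasi-likelihood test), with a median log2 fold change of 0.86. Over the 21384 genes with a tested gene-end peak chosen in the same way, 19.4% were higher and 2.73% lower, with a median of 0.19. Mcm7, a subunit of the replicative helicase, rose by 1.18 ± 0.16 on the log2 scale. Differentiation genes had 7 of 14 higher, with Kit at 1.04 ± 0.21 and Stra8, a gatekeeper of meiosis, at 1.20 ± 0.27. Recombination genes had 6 of 23 higher, with Mei4 at 0.80 ± 0.22, and regulators of meiotic and spermatid transcription 5 of 15, with Rfx2 at 0.88 ± 0.18. The undifferentiated list had 3 of 25 higher in KIT-positive cells, Etv5, Id4 and Bmi1, and 1 lower, Ccnd2. The spermiogenesis list had 4 of 26 higher, the axis and synapsis list 1 of 14 and the piRNA list 1 of 17, and 0 were lower in these 3 lists. Rec8, the only call of the axis list, and Meioc are each counted in 2 lists. Sertoli (10 tested), Leydig (2), immune (4) and peritubular or endothelial (7) peaks had 0 calls in either direction.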

How the data were processed

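ATAC-seq was measured in 22 libraries. The deposited table holds raw counts of reads in peaks shared by all libraries, beside each peak's position. Tools named, per the submitters' processing notes, are Bowtie2, SAMtools, Picard and FastQC, and builds are mm10, GRCm38 and hg19; the peak caller, the filter on duplicate reads and any Tn5 offset are not given in the sources used here. Starts are printed as deposited.

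The regions and gene lists were chosen with earlier results of these data known. CPM is a count divided by the library's total in peaks. Control and later libraries chose the regions, so tests used the 9 deleted libraries alone: edgeR 4.0.16 in R 4.3.3, TMM scaling, peaks with 10 or more summed counts, quasi-likelihood F tests, 6 residual degrees of freedom, Benjamini-Hochberg adjustment over 91132 peaks and a threshold of 0.05. The fit was tested on simulated data. Standard errors are log2 fold changes over the root of their F statistic. Counting intervals are exact (Clopper-Pearson, 95%). Positions come from RefSeq GRCm38.p6 (34631 genes); a gene end is within 1 kb of either annotated end. Gene lists use 1 gene-end peak per gene, the one with the highest mean count in deleted libraries. No genome sequence was used here, so the regions' own bases are not printed.

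Named genes were, among regions at or in protein-coding genes, the 8 highest in control KIT-positive cells, the 8 highest in later cells, the 8 largest and 4 lowest log2 fold changes in deleted cells, genes of the lists, and the regions nearest each threshold. Library names of the deleted sorts share numbers, but same-numbered libraries showed no shared deviation. Their correlations were -0.119 to 0.0803, against -0.0948 to 0.1115 between different numbers. Such values cannot show that the sorts are unpaired, and the main fit did not pair them. Alternatives were other scalings, filters, DESeq2 1.42.0, a fit of all 17 spermatogonial libraries, a replicate block and leaving out each library.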

Additional observations from a re-analysis of the deposited data

Results flagged for a closer look

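In all, 25 sets of the 5 later libraries were examined for a library far from the other 4. The sets were the named regions, the sum over the 90 regions and the regions open in later germ cells. Of these, 3 were flagged, all of them named regions, where chance gives about 1 in 20. At the Foxh1 region, later replicate 5 stood apart at 59.6 CPM, with the other 4 at 48.8 to 51.8 CPM. At the Spo11 region, later replicate 1 stood apart at 59 CPM, with the others at 28.3 to 37.0 CPM. At the Cyb5rl region, later replicate 3 stood apart at 53.7 CPM, with the others at 35.6 to 40.8 CPM. The 3 libraries differ from each other. Each region's mean meets the rule's later condition by choice.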

How the results depend on the processing

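The number of regions kept by the rule depends on its thresholds. It was 577 at a gain of 2 times and 46 at 4 times, 520 at a minimum of 5 CPM and 18 at 20 CPM, and 28 when later cells had to reach the KIT-positive level. TMM-scaled CPM gave 132, including all 90. Leaving out each library gave 77 to 146. The count higher in deleted KIT-positive cells than in both KIT-negative populations, 59 in the fit reported, was 50 with total counts in place of TMM, 47 with DESeq2, 48 with a filter by group (66 regions tested), 52 with all 17 spermatogonial libraries, 49 without the 2 deleted libraries with over 70% even counts (chosen after seeing the data), and 47 to 59 when each library was left out. Counts against MCAM-high ran from 40 to 51 and against MCAM-medium from 23 to 36 when each library was left out, and MCAM-medium against MCAM-high from 0 to 1. With the replicate block the counts were 54, 48, 33 and 0. Whether the numbers pair the libraries is not settled.

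Total counts in place of TMM moved the median of all peaks to -0.27 and the split of all calls to 4903 higher and 4552 lower (51.9% higher), against 7173 and 2822 (71.8%) with TMM. Against MCAM-high the split was 49.6% in place of 69.3%, and against MCAM-medium 46.2% in place of 67.8%. With total counts, 4645 were lower than MCAM-high, and 2309 were higher and 2690 lower than MCAM-medium. Further counts over all peaks that moved by over 1.5 times include 1836, 1876 and 988 lower with DESeq2 (against 2822, 2890 and 1763), and 2441 higher than MCAM-medium with all 17 libraries (against 3708). Without the libraries of over 70% even counts, 1778 were lower against both populations, and 1870 were higher and 932 lower against MCAM-medium. Between MCAM-medium and MCAM-high, DESeq2 called 177 higher and 10 lower, the 17-library fit 294 and 18, and the block 24 lower (against 581 and 49). Against both populations, 1696 were lower without deleted KIT-positive replicate 1 and 4698 higher without replicate 2. Leaving out 1 library gave 1767 to 1870 lower than MCAM-high in 3 cases (against 2890), 2382 and 2394 higher (against 3708) and 1081 and 1043 lower (against 1763) than MCAM-medium in 2 cases each, and, between MCAM-medium and MCAM-high, 218 to 302 higher in 4 cases (against 581), and 8 to 22 lower in 5 cases and 76 in another (against 49).

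Of the named regions, only some that were not called changed sign. When each library was left out, log2 fold changes ran from -0.40 to 0.039 at Atxn7l3, -0.57 to 0.045 at Slc12a8, -1.22 to 0.033 at Jph3, -0.20 to 0.20 at Chd3 and -0.16 to 0.92 at Cyb5rl. Without TMM, Chd3 was at -0.13 and Cyb5rl at -0.0097. Ptk2 passed without deleted KIT-positive replicate 2, MCAM-high replicate 3 or MCAM-medium replicate 3 (adjusted p = 0.0414, 0.0379 and 0.0195). Their causes were not tested. Regions of about 10 CPM rest on few counts: 55 of the 90 had 10 or more counts in every deleted KIT-positive library.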
